A study of Mus musculus with 5375 samples.

Results

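Within the latent gate of metastasizing tumor cells (TCs), cells with few detected cell-cycle genes were compared with cells that had many. The members were chosen by measured values: for each cell it was counted how many of Mki67, Top2a, Birc5, Cdk1, Ccnb1, Ccna2, Tk1, Rrm2, Mcm5 and Mcm6 had a value above 0. Cells with 3 or fewer were taken as noncycling and cells with 6 or more as cycling. Of the 80, 85, 84 and 80 latent cells that the authors kept in 4 animals (m9, m10, m11 and m12), 15, 14, 10 and 5 were noncycling and 56, 58, 66 and 68 cycling. The 37 latent cells with 4 or 5 of the genes entered neither class, and the whole series holds 1566 kept TCs. The 10 genes and the other genes of the cell-cycle lists serve below as a description of the classes and support nothing about how they differ.

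The cells were 4T1-GFP cells, a mouse mammary carcinoma line made to express green fluorescent protein, which were stained with the dye CellTrace, diluted at each division, and injected intravenously into wild-type female BALB/c mice aged 8 to 12 weeks. TCs were sorted from the lung 1.5 days after injection as intravascular or extravascular, by a fluorescent anti-H-2Kd antibody given intravenously shortly before death. At 3.5 days after injection they were sorted as latent (dye retained) or proliferative (dye diluted), and uninjected leftover cells served as a baseline. Each sorted cell gave 1 library, made with a modified form of SMART-Seq2, which covers whole transcripts and has no molecular identifiers. All groups share the cell line, the dye and the GFP, the line is a single one, and the sort had left out cells with leukocyte, erythroid or lymphatic surface markers.

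In a dividing cell the replication genes (Mcm5, Mcm6, Rrm2, Tk1) are transcribed around S phase, and the mitotic genes (Mki67, Top2a, Birc5, Cdk1, Ccnb1, Ccna2) rise towards division and are shut down in cells that leave the cycle. D-type cyclins and their inhibitors control the decision made in G1. Disseminated TCs that stop dividing after they reach an organ are described as latent or dormant, and a retained dye records few past divisions, not whether a cell is in cycle at the moment of sorting.

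As the plot of detected cycle genes shows, the latent gate was mostly made of cells with 9 or 10 of the genes, with 16 to 21 cells at each count from 2 to 6 and 5 cells each at 0 and 1. Just inside and just outside the limits the numbers were alike, with 18 cells at 3 genes and 16 at 4, and 21 cells at 5 genes and 16 at 6. The classes are therefore ranges of a continuous count and not separate clusters.

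**Figure D1:**
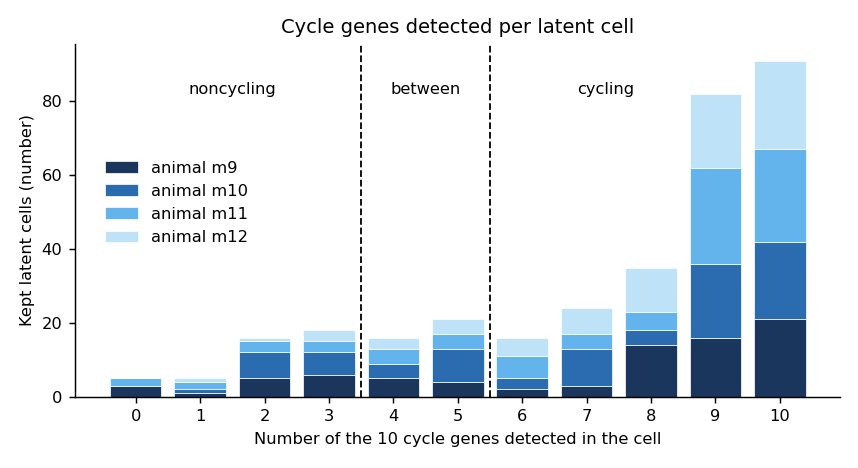
Number of kept latent cells (vertical axis) by the number of the 10 cycle genes detected in the cell (horizontal axis), stacked by animal. Dashed lines mark the limits of the noncycling (3 or fewer) and cycling (6 or more) classes, and 16 to 21 cells stand at each count from 2 to 6.

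As a description of what the rule chose, reads of the cells of a class were summed in each animal and scaled to the total of the sum (CPM, counts per 1e6 reads). Mki67, a marker of dividing cells, stood at 3.96, 0, 0 and 0.526 CPM in the noncycling sums of m9, m10, m11 and m12, and at 127.1, 148.4, 133.9 and 105.3 CPM in the cycling sums. Reads of Mki67 were found in 4.55% of the noncycling and 88.7% of the cycling cells, and reads of Cdk1 in 50% and 98.4%, so that a noncycling cell could still hold some cycle transcripts. In the longer lists, which contain some of the 10 genes, 42 of 43 S-phase genes and 54 of 54 G2M genes were lower in noncycling sums, with medians of -3.60 and -5.36 log2.

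Noncycling cells were shallower. Their median was 294215 reads against 560738 in cycling cells. Genes detected outside the cycle lists had medians of 5040, 5543.5, 4948 and 5274 in noncycling cells of m9, m10, m11 and m12, against 6537, 6959.5, 6532.5 and 6745.5 in cycling cells. The difference was -1492 ± 70 genes (SD, n = 4 animals) and had the same sign in 4 of 4 animals, at the smallest p that an exact sign-flip permutation test of 4 animals allows (0.13, 2-sided). When every cell was first reduced at random to 100000 reads (thinned) and the rule applied to what was left, the difference was -563.5 ± 123.2 genes, again lower in 4 of 4 animals. The share of mitochondrial reads showed no such order, with class medians of 1.76% and 1.68% and the noncycling median lower in 2 of 4 animals. Reads of the housekeeping genes, by which the authors scaled each cell, had a median of 603 per detected gene against 1507. How far depth by itself puts a cell into the noncycling class was not tested beyond the thinned values given here and below.

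**Figure D2:**
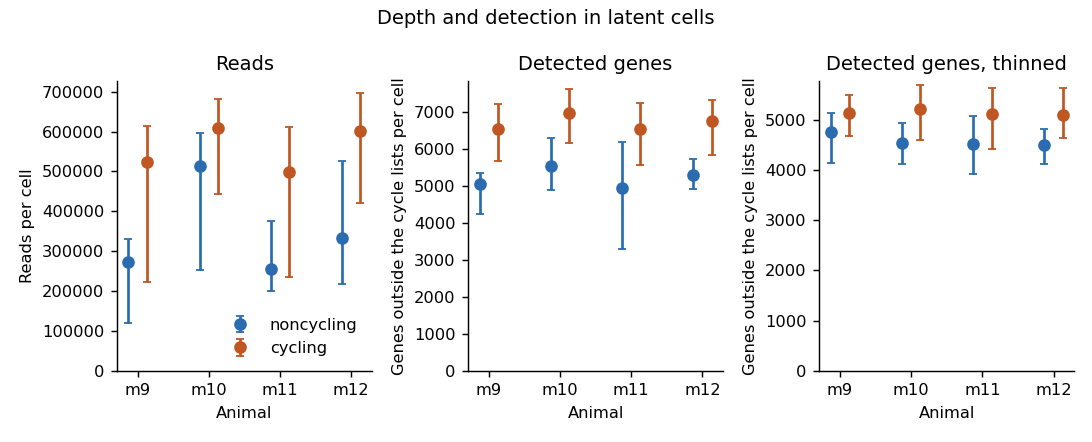
Median reads per cell (left) and median number of detected genes outside the cycle lists per cell before (middle) and after (right) thinning to 100000 reads, by animal and class, with bars from the first to the third quartile of the cells. The noncycling median lies below the cycling median in 4 of 4 animals in each panel.

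The rule takes no account of the gate, so the share of noncycling cells was compared between gates. The latent gate had the highest mean share of noncycling cells among the 3 gates sampled in 4 animals each. They made up 18.8%, 16.5%, 11.9% and 6.25% of the kept latent cells of m9, m10, m11 and m12 (13.3 ± 5.5%, SD, n = 4). In the extravascular gate the shares were 9.33%, 5.0%, 7.25% and 1.22% in m5, m6, m7 and m8, and in the intravascular gate of the same animals 4.88%, 0%, 1.25% and 0%. The animals with 0 had 79 and 84 cells, which allows shares of up to 3.80% and 3.57%. By exact 2-sided permutation tests over 4 against 4 animals the difference between the latent and the extravascular share did not pass (p 0.0857, adjusted 0.0857), and against the intravascular share the p was 0.0286, the smallest this design allows, and 0.0571 adjusted over both comparisons. After thinning the shares were 22.2 ± 6.1% in latent, 11 ± 2.3% in extravascular and 5.59 ± 3.10% in intravascular cells, the latent animals did not overlap either other gate, and both exact permutation p values were 0.0286 (adjusted 0.0286). Without m12 the unthinned shares gave an adjusted p of 0.0286 in both exact permutation tests (3 against 4 animals, by the absolute difference of means), whereas with any of the other 7 animals left out neither comparison passed (adjusted p 0.0857 to 0.143 against the extravascular and 0.0571 to 0.114 against the intravascular share, exact permutation tests). Each gate was sequenced in a lane of its own. The latent cells come from other animals and another day (3.5 against 1.5 days after injection) than those of both other gates. The antibody was given for the sort at 1.5 days. Gate, lane, day, antibody and animals therefore cannot be told apart. The proliferative pool held 6 noncycling cells (2.53%, exact 95% interval 0.935% to 5.43%) and the culture 53 (14.4%, 10.95% to 18.4%), with intervals that cover counting error only. The study sorted proliferative cells from several animals, but the deposited annotation names all of them m12, so they were taken as 1 pool.

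**Figure D3:**
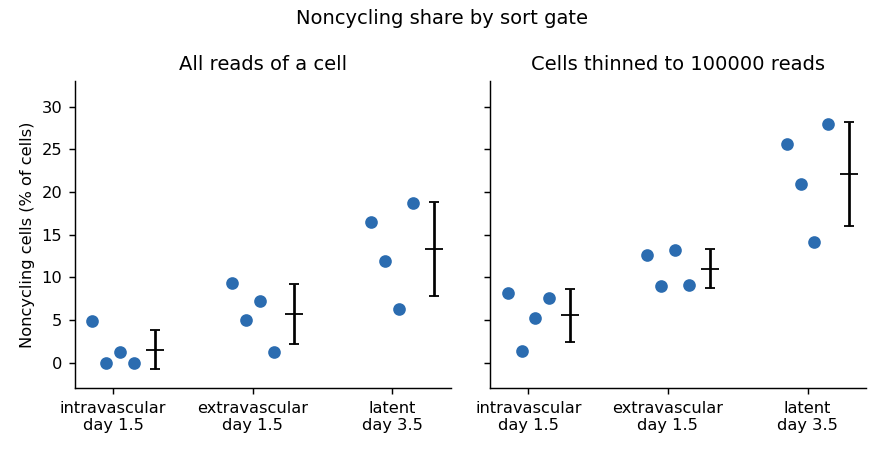
Noncycling cells as a percentage of the cells of an animal (points, 4 animals per gate) in 3 sort gates, with all reads (left) and with each cell thinned to 100000 reads (right); the bar beside the points is the mean ± SD. On the right the 4 latent animals, between 14.1% and 27.9%, stand above all 8 values of the other gates.

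The class sums of an animal were compared within that animal, with 521 cycle genes set aside. This asks which genes outside the cycle lists go with the noncycling state in latent TCs. Both classes of an animal come from the same plate and lane. Each class was required to hold 10 cells, which left m9, m10 and m11, and edgeR's quasi-likelihood test was run on 12210 genes. With a limit of 0.05 on the p adjusted by the method of Benjamini and Hochberg, 0 genes were higher and 4 lower in noncycling cells (0.0328% lower, 0.0328% in all). At an unadjusted p under 0.05 there were 1093 genes, and DESeq2 called 0.622% of the genes higher, 1.98% lower and 2.6% in all. With the 5 noncycling cells of m12 added, edgeR called 9 of 12032 genes, each of them lower (0.0748%). The noncycling sums held 1.90 to 6.25 M reads and the cycling sums 24.4 to 36.6 M, from fewer cells and fewer reads per cell. The CPM of a sum does not by itself show whether fewer cells or fewer reads per cell make a gene low. For some genes below the share of cells with reads is therefore given.

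Of the 4 genes called, Mxd3 is the one that is not a pseudogene. It encodes a partner of Max in the Myc network and lies at chr13:55325168-55329823 on the minus strand of GRCm38. Mxd3 stood at 0.230, 0.502, 0.353 and 0.583 CPM in noncycling m9, m10, m11 and m12 and at 77.5, 50.4, 75.5 and 74.5 CPM in cycling cells. Its noncycling values rested on 6 reads in 5 cells, the classes did not overlap, and it fell by 7.43 log2 (SE 0.73, adjusted p 0.0075 by edgeR). Here and below the CPM of genes in the latent and extravascular sums are taken over the genes outside the cycle lists. They are scaled between sums by the TMM method of edgeR, unless CPM of all reads are named.

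The other 3 are processed pseudogenes, Gm4739 (-5.34 ± 0.46 log2, adjusted p 0.0044 by edgeR), Gm15428 (-9.06 ± 1.10, adjusted p 0.0309) and Gm10182 (-3.81 ± 0.47, adjusted p 0.0309). They lie at chr10:26107789-26108421, chr1:156793512-156793844 and chr9:22321105-22321377. Gm15428 had 1 read in the noncycling sums, so that its fold is uncertain. Compared by words of 31 bases with all GENCODE vM21 transcripts, Gm4739 shared 90.2% of its words with Hmgb2, Gm15428 70.6% with Pclaf and Gm10182 100% with Hmgn2. Those 3 genes are themselves on the cycle lists that were set aside, and reads of a near-identical copy can be assigned to either. Apart from these copies of listed genes, 1 gene (Mxd3) was thus called in these 3 animals. A gene absent from the lists can still follow the cell cycle. How far Mxd3 and the lower genes named below do so was not tested. In thinned extravascular cells Mxd3 was lower in the noncycling class as well (-4.57 log2, adjusted p 0.048 by edgeR).

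Classes formed in 2 other ways, both with all 4 animals, gave more calls, and the genes below are described with them. In the thinned classes the rule was applied after thinning, which gave 19, 21, 17 and 11 noncycling and 48, 54, 62 and 57 cycling cells, and edgeR called 1.58% of 9729 genes higher and 2.79% lower (425 genes, 4.37%). Of these 68 noncycling cells 38 were noncycling, 28 between the limits and 2 cycling at full depth. The score classes follow a criterion of the study, which set latent cells with summed scores below -1 against cells of the proliferative gate above 0, whereas here both limits were applied within the latent gate. The summed S-phase and G2M scores were below -1 in 20, 23, 14 and 11 noncycling and above 0 in 52, 47, 59 and 52 cycling cells, and edgeR called 1.75% of 12307 genes higher and 3.52% lower (648 genes, 5.27%). Of the 68 noncycling cells of the score classes 35 were noncycling by the rule, 26 between its limits and 7 cycling, so about as many lay outside the rule's noncycling class as in it. The classes share cells and are not independent of each other. The genes called higher in both were 77.3% of those of the thinned and 55.3% of those of the score classes, and the genes called lower in both 80.1% and 50.1%. Pseudogenes made up 12.2% of the lower genes of the thinned classes (33 genes) and 1 of the higher ones, against 6.08% of the genes tested. The median of all genes was -0.19 log2 with the rule classes, -0.06 with the thinned and -0.07 with the score classes. Leaving out 1 animal moved the 425 calls of the thinned classes to 61 without m9, 571 without m10, 28 without m11 and 36 without m12.

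Lgals3, which encodes galectin-3, a lectin that binds sugars on cell surfaces and matrix, led the genes that were higher in noncycling cells. It stood at 4920, 7240, 5706 and 3881 CPM in noncycling m9, m10, m11 and m12, against 2088, 1778, 1508 and 1499 CPM in cycling cells, with reads in every cell of both classes. The classes did not overlap. The difference was 1.72 ± 0.32 log2 in the rule classes (SE, adjusted p 0.291 by edgeR, not called), and Lgals3 rose by 1.73 ± 0.23 log2 in the thinned (adjusted p 0.0013) and 1.73 ± 0.17 log2 in the score classes (adjusted p 0.0045). The gene spans chr14:47367751-47386160.

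Next by the smallest p of the rule classes, none of them called there (adjusted p 0.377 by edgeR for each), were Klf4, Ndrg1, Rab40c and Slc39a10. Klf4, a transcription factor of epithelial and stem cells, stood at 233.6, 75.5, 69.2 and 100.9 CPM in noncycling m9, m10, m11 and m12 and at 41.7, 33.8, 13.003 and 21.5 CPM in cycling cells. Ndrg1, induced by hypoxia and stress, stood at 553, 257.9, 407 and 218.7 CPM against 88.7, 145.3, 94.9 and 78.8 CPM. For both genes the classes did not overlap, and both rose in the thinned (2.21 ± 0.36 and 2.37 ± 0.34 log2, adjusted p 0.0057 and 0.0022 by edgeR) and in the score classes (2.34 and 2.49 log2). Slc39a10, a zinc importer, was called in the score classes (1.48 log2, adjusted p 0.0284 by edgeR) and missed the threshold in the thinned ones (1.43 log2, adjusted p 0.0519), and Rab40c missed it in both (3.07 and 2.83 log2).

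**Figure D4:**
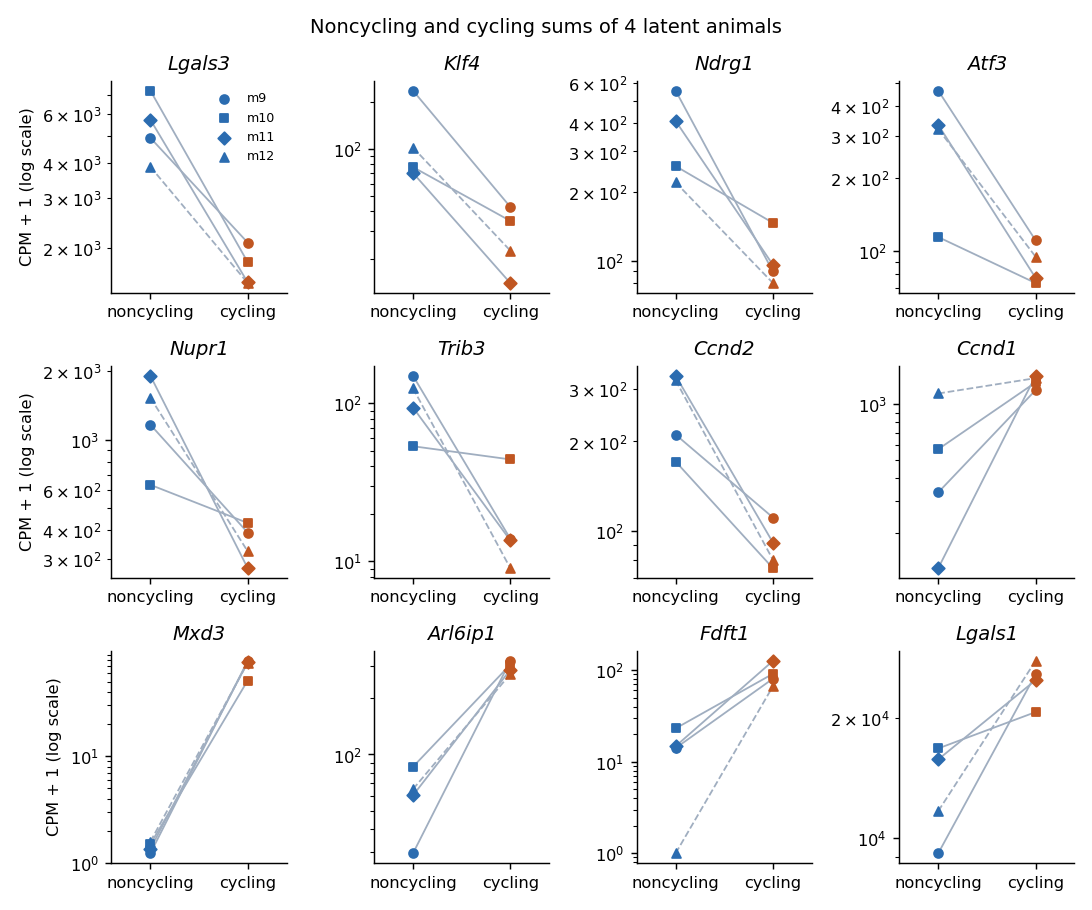
CPM plus 1 (log scale, each panel with its own range) of 12 genes in the noncycling and cycling sums of the rule classes, with 1 line per animal; m12, whose noncycling sum holds 5 cells, is dashed. The first 7 panels are higher in noncycling cells of 4 of 4 animals and the last 5 are lower in 4 of 4.

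On the lower side the genes named by the same rule, beside Mxd3, were Lrr1, Arl6ip1, Fdft1, Mnd1 and Selenoh. Lrr1, a substrate adaptor of a ubiquitin ligase, had 0 reads in the 44 noncycling cells and 3301 in the cycling ones (26.9 CPM of all reads). Taking 3 counts over the group as the floor, it was at least 132.5-fold lower. This bound covers the counting error of reads only, not the spread between cells or animals. Arl6ip1, a protein that shapes the endoplasmic reticulum, stood at 28.5, 84.9, 59.3 and 64.2 CPM in noncycling m9, m10, m11 and m12 against 317.01, 302.7, 284.1 and 269.3 CPM. The classes did not overlap for Arl6ip1, and it fell by 2.84 log2 in the thinned and 2.86 log2 in the score classes (adjusted p 8.2e-05 and 0.0020 by edgeR). Selenoh, a nucleolar selenoprotein, fell by 1.80 log2 in the thinned classes (adjusted p 0.0026 by edgeR). Mnd1, which acts in meiotic recombination, had 7 reads in 2 noncycling cells and was called in the score classes alone (-2.46 log2, adjusted p 0.0492 by edgeR, against -2.70 log2 and 0.0586 in the thinned ones).

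Among the G1 regulators, cyclin D1 and cyclin D2 moved in opposite directions. Ccnd1 stood at 331.4, 569, 127.8 and 1144 CPM in noncycling m9, m10, m11 and m12 and at 1193, 1314, 1428 and 1387 CPM in cycling cells. Ccnd2 stood at 209.9, 170.3, 330.9 and 319.6 CPM against 110.3, 74.3, 90.8 and 79.4 CPM. The classes did not overlap for either gene, and in m12 Ccnd1 was close to its cycling level. In the thinned classes Ccnd1 fell by 1.76 log2 (SE 0.29, adjusted p 0.0053 by edgeR) and Ccnd2 rose by 1.24 ± 0.25 log2 (adjusted p 0.0165). Cdkn2d, an inhibitor of the cyclin D kinases, fell by 4.44 log2 (SE 0.43, adjusted p 8.2e-05 by edgeR), with 0.230, 10.2, 36.4 and 27.4 CPM against 245.4, 180.4, 211.8 and 188.2 CPM. Of 19 genes of G1 cyclins, inhibitors and pocket proteins tested in the thinned classes, 4 rose (Ccnd2, Hbp1, Mxd4 and Btg1), 2 fell and 13 did not pass, against 1.58% and 2.79% of all genes. Btg2, the antiproliferative gene with the next smallest p in the rule classes, had 12 reads in 3 noncycling cells and did not pass in the thinned classes (adjusted p 0.143 by edgeR).

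Many genes of the integrated stress response were called higher in the thinned and score classes, and none in the rule classes. This response slows translation and, through the transcription factor Atf4, turns on genes of amino acid supply, tRNA charging and stress signaling. Of 33 list members tested in the thinned classes 14 rose (42.4%, against 1.58% of all genes), 0 fell and 19 did not pass, with a median of 1.27 log2 against -0.06 over all genes, and of 37 in the score classes 18 rose (48.6%, against 1.75%) and 0 fell (median 1.26 log2). In the rule classes 0 of 37 were called and the median was 0.65 log2 against -0.19 over all genes, with 32 of 37 above 0. The transcription factors Atf4, Atf3, Ddit3, Atf5 and Cebpb, the stress regulators Nupr1, Trib3, Ppp1r15a and Chac1, and Sars and Aars, which charge tRNAs, were among those called in the thinned classes.

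Atf3 stood at 464, 112.9, 333.7 and 320.2 CPM in noncycling m9, m10, m11 and m12 and at 109.4, 72.2, 75.99 and 93.3 CPM in cycling cells, with reads in 86.4% of the noncycling and 46.8% of the cycling cells. Nupr1 stood at 1162, 632, 1903 and 1525 CPM against 390, 430, 272.1 and 322.8 CPM. Trib3, which inhibits Akt and Atf4, stood at 148.6, 52.6, 93.2 and 123.6 CPM against 12.9, 43.2, 12.6 and 8.07 CPM. The classes did not overlap for these 3 genes, although m10 had the smallest rise of each. In the thinned classes Atf3 rose by 2.22 ± 0.33, Nupr1 by 1.98 ± 0.24 and Trib3 by 2.59 ± 0.47 log2 (adjusted p 0.0026, 6.2e-04 and 0.0093 by edgeR). Chac1, which degrades glutathione, rose by 2.56 ± 0.51 log2 (adjusted p 0.0153 by edgeR) in the thinned but not in the score classes (2.45 log2, adjusted p 0.0657), and its reads came from 20 of 44 noncycling and 56 cycling cells. Atf4 itself rose by 1.31 ± 0.28 log2 (adjusted p 0.0181 by edgeR), and in m10 it was lower in noncycling cells (183.9 against 268.3 CPM).

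Atf4 acts with C/EBP proteins on composite elements, and the promoters of the list were searched for the letters TGATGNAA on both strands, in windows from 250 bases before to 50 after the start of a gene (RefSeq, GRCm38.p6). Of 34 list genes with a window 13 held it (38.2%), as did 4.51% of all 27025 genes with a window and 2.72% of the tested genes, 3.7% of immediate early genes and 5.88% of cholesterol genes. The 34 genes were counted whether or not they rose. A list of Atf4 response genes can hold more of this element by the way it is drawn up. The share therefore describes the list and not these cells. Some stress genes whose match lies before the start are shown with the match in capitals, each 30 bases read 5′ to 3′ on the strand of the gene, because they share this element and rose in the thinned or the score classes.
Atf3 (minus strand, chr1:191183425-191183454): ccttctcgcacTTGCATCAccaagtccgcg
Chac1 (plus strand, chr2:119351038-119351067): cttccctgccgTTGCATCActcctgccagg
Nupr1 (minus strand, chr7:126625562-126625591): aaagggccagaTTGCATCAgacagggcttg
Asns (minus strand, chr6:7693214-7693243): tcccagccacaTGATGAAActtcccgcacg
In Atf3, Chac1 and Nupr1 the match is on the opposite strand, so the capitals read as its reverse complement, and in Asns it is on the strand of the gene. Asns, asparagine synthetase, was called in the score classes alone (1.71 log2, against 1.37 log2 in the thinned ones). No match was found for Atf4, Ddit3, Atf5, Cebpb, Ppp1r15a and Sars, which were called too, so the windows shown are a selection. A match is a description of letters, and binding was not measured.

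Immediate early genes, which respond within minutes to growth factors and stress, followed the same direction. In the thinned classes 9 of 28 rose (32.1%, against 1.58% of all genes) and 0 fell (median 1.00 log2), and in the score classes 11 of 30 rose (36.7%, against 1.75%) and 1 fell. Zfp36l1, which promotes mRNA decay, stood at 650, 828, 626 and 943 CPM in noncycling m9, m10, m11 and m12 against 353.3, 289.2, 294.97 and 372.2 CPM, and rose by 1.36 ± 0.22 log2 in the thinned classes (adjusted p 0.0053 by edgeR). Ier3, an early gene of stress and NF-kB signaling, rose by 1.08 ± 0.24 log2 (adjusted p 0.0253 by edgeR), with m12 nearly equal at 382.02 against 364.03 CPM. Klf4, Atf3 and Ppp1r15a are on this list too, so it is not separate from those above.

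Of the NF-kB and inflammation genes 5 of 28 rose in the thinned classes (17.9%, against 1.58% of all genes) and 5 of 32 in the score classes (15.6%, against 1.75%), with 0 lower in either. Nfkbiz, a nuclear IkB protein, rose by 1.67 ± 0.40 log2 in the thinned classes (adjusted p 0.0305 by edgeR), with 97.6, 43.04, 45.6 and 25.1 CPM in noncycling m9, m10, m11 and m12 against 24.1, 13.02, 11.5 and 9.25 CPM. The cytokine gene Il1a had reads in 5 cells of either class and was too sparse to be tested after thinning. It was nevertheless among the genes called higher in the score classes (7.37 log2, adjusted p 0.0193 by edgeR). Of the interferon genes 1 of 37 rose (Ddx58, an RNA sensor) and 1 fell (Cd74) in the thinned classes, against 10 of 44 rising in the score classes, whose median of 1.26 log2 compares with 0.55 log2 in the thinned ones. Ddx58 stood at 63.4, 56.3 and 88.99 CPM in noncycling m9, m10 and m11 against 18.4, 16.1 and 25.9 CPM, and at 10.5 against 15.99 CPM in m12. Of the class I MHC genes H2-T23 rose (1.29 ± 0.27 log2, adjusted p 0.0181 by edgeR) and 2 of 23 fell (8.7%, against 2.79% of all genes), and as a gene with near copies it is uncertain.

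Genes that have been tied to dormancy or stemness included several of the above. Of 19 dormancy genes tested in the thinned classes 4 rose (Klf4, Ndrg1, Ddit3 and Sox9) and 0 fell (21.1% higher, against 1.58% of all genes), and of 21 in the score classes 4 rose and 1 fell (Gpx1, -0.98 log2, adjusted p 0.0272 by edgeR). Of the 11 stemness and dormancy genes that the study listed 6 could be tested in the thinned classes, and 2 of them rose (Klf4 and Sox9), as did 3 of 10 in the score classes. The study applied that list to these samples, so its direction is not independent evidence. Sox9 stood at 123.8, 63.98, 58.3 and 23.9 CPM in noncycling m9, m10, m11 and m12 against 46.8, 48.2, 53.7 and 44.4 CPM, so that the classes overlapped and m12 had the opposite order. Myc stood at 176.1, 65.2, 111.9 and 181.4 CPM against 44.5, 91.2, 84.4 and 73.3 CPM, lower in noncycling cells of m10, and was called in the score classes (1.59 log2, adjusted p 0.0356 by edgeR) and not in the thinned ones (1.38 log2, adjusted p 0.0519). Bhlhe40, a repressor tied to quiescence, was at 1.34 log2 in the thinned classes (adjusted p 0.0944 by edgeR) and was not called.

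The gene sets that the study itself followed gave calls in both directions, and since it applied them to these samples their directions are not independent evidence. Of the study's canonical Wnt list 1 of 23 genes rose in the thinned classes (Ccnd2) and 4 of 26 in the score classes (Ccnd2, Notch1, Csnk1e and Myc; 15.4%, against 1.75% of all genes), with 0 lower. Of its Wnt pathway list 3 of 86 rose and 2 fell in the thinned classes, and of its noncanonical list 0 of 23 were called. Of its epithelial-to-mesenchymal transition (EMT) genes 12 rose (5.43%, against 1.58% of all genes) and 11 fell (4.98%, against 2.79%), with a median of 0.04 log2, and of its extravasation genes 0 of 9. Of the 28 TGF-beta targets 1 rose (Fn1), and of 10 Wnt targets and feedback genes 1 rose (Sox9).

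Epithelial and mesenchymal genes moved in both directions, with 4 of 26 EMT factors and markers higher and 2 lower in the thinned classes (15.4% and 7.69%, against 1.58% and 2.79% of all genes). Vim, the intermediate filament of mesenchymal cells, stood at 1189, 1446, 970 and 1123 CPM in noncycling m9, m10, m11 and m12 against 2242, 2352, 2467 and 2168 CPM, did not overlap, and fell by 0.94 log2 in the thinned classes (SE 0.21, adjusted p 0.0223 by edgeR). Dsp, a desmosome protein, rose by 1.76 ± 0.38 log2 (adjusted p 0.0201 by edgeR), with 139.2, 68.5 and 65.7 CPM in m9, m10 and m11 against 19.9, 19.9 and 25.5 CPM and 13.4 against 15.5 CPM in m12. Fn1, fibronectin, rose as well (1.10 ± 0.22 log2, adjusted p 0.0161 by edgeR), at 2291, 696, 559 and 962 CPM against 554, 566, 358.3 and 406 CPM, as did Cdh1 (0.93 log2, adjusted p 0.0480), the adhesion protein of epithelia. Vim and Cdh1 were not called in the score classes (adjusted p 0.0699 and 0.0634 by edgeR).

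Among matrix genes 3 of 40 rose and 2 fell in the thinned classes (7.5% and 5%, against 1.58% and 2.79% of all genes). Sparc and Timp1, a matrix protein and a protease inhibitor, fell by 1.06 and 1.27 log2 (adjusted p 0.0223 and 0.0093 by edgeR), and noncycling m12 had more of both than its cycling cells (839 against 473 and 463 against 446 CPM). Sparc was not called in the score classes (adjusted p 0.0636 by edgeR). Spp1, osteopontin, was not called (-0.78 log2 in the thinned classes, adjusted p 0.145 by edgeR).

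Galectin-1 went against galectin-3. Lgals1 stood at 9169, 16789, 15760 and 11697 CPM in noncycling m9, m10, m11 and m12 and at 25728, 20704, 24884 and 27814 CPM in cycling cells, without overlap. It fell by 1.04 log2 in the thinned (SE 0.22, adjusted p 0.0171 by edgeR) and 1.26 log2 in the score classes (adjusted p 0.0091). Of 5 galectin genes tested in the thinned classes these were the 2 called, against 4.37% of all genes in either direction.

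Calls among genes of cholesterol synthesis were on the lower side in the thinned and score classes, and none was made in the rule classes. Of 24 genes tested in the thinned classes 0 rose and 6 fell (25%, against 2.79% of all genes) while 18 did not pass, among the lower ones Fdft1, Stard4, Ebp and Fdps, and in the score classes 8 fell (33.3%, against 3.52%), with medians of -1.42 and -1.30 log2 and -1.20 log2 in the rule classes. Fdft1, squalene synthase, stood at 13.1, 22.1, 13.8 and 0 CPM in noncycling m9, m10, m11 and m12 against 79.6, 90.2, 125.1 and 65.6 CPM. It did not overlap and fell by 2.52 log2 in the thinned classes (SE 0.34, adjusted p 0.0014 by edgeR), and 38.6% of the noncycling cells had a read against 84.3% of the cycling ones. Stard4, a sterol carrier, fell by 4.28 log2 (adjusted p 0.0358 by edgeR), with 17 reads in 5 noncycling cells. Fdps turned to 0.095 log2 in rule classes matched on detected genes with at least 5 cells a class.

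In the endoplasmic reticulum's unfolded protein response most genes did not pass. Of 20 tested in the thinned classes 1 rose (Atf6, a sensor), 4 fell (Calr, Hsp90b1, Pdia6 and Creld2, chaperones and folding factors; 20%, against 2.79% of all genes) and 15 did not pass, with the same counts in the score classes. Calr stood at 117.6, 214.7, 102.4 and 123.1 CPM in noncycling m9, m10, m11 and m12 against 326.96, 367.8, 328.8 and 341.3 CPM, without overlap, and fell by 1.05 log2 (SE 0.25, adjusted p 0.0296 by edgeR). Hsp90b1 fell by 1.00 log2 (adjusted p 0.0204 by edgeR), with noncycling m12 at 471 against 502 CPM.

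Of 44 splicing factors 0 rose, and 6 fell in the thinned (13.6%, against 2.79% of all genes) and 9 in the score classes (20.5%, against 3.52%). Alyref, an mRNA export factor, stood at 32.2, 10.4, 16.9 and 14.6 CPM in noncycling m9, m10, m11 and m12 against 79.05, 50.8, 62.2 and 65.8 CPM and fell by 1.57 log2 (adjusted p 0.0232 by edgeR), as did Snrpd1, a core spliceosome protein, by 1.07 log2 (adjusted p 0.0346). Of 88 nuclear genes of oxidative phosphorylation (OXPHOS) 4 fell in the thinned classes (4.55%, near the 2.79% of all genes) and 30 of 93 in the score classes (32.3%, against 3.52%). Ndufaf3, an assembly factor of complex I, fell by 2.35 log2 in the thinned classes (adjusted p 0.0069 by edgeR). Of the 13 genes of the mitochondrial genome 0 were called in either.

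**Figure D5:**
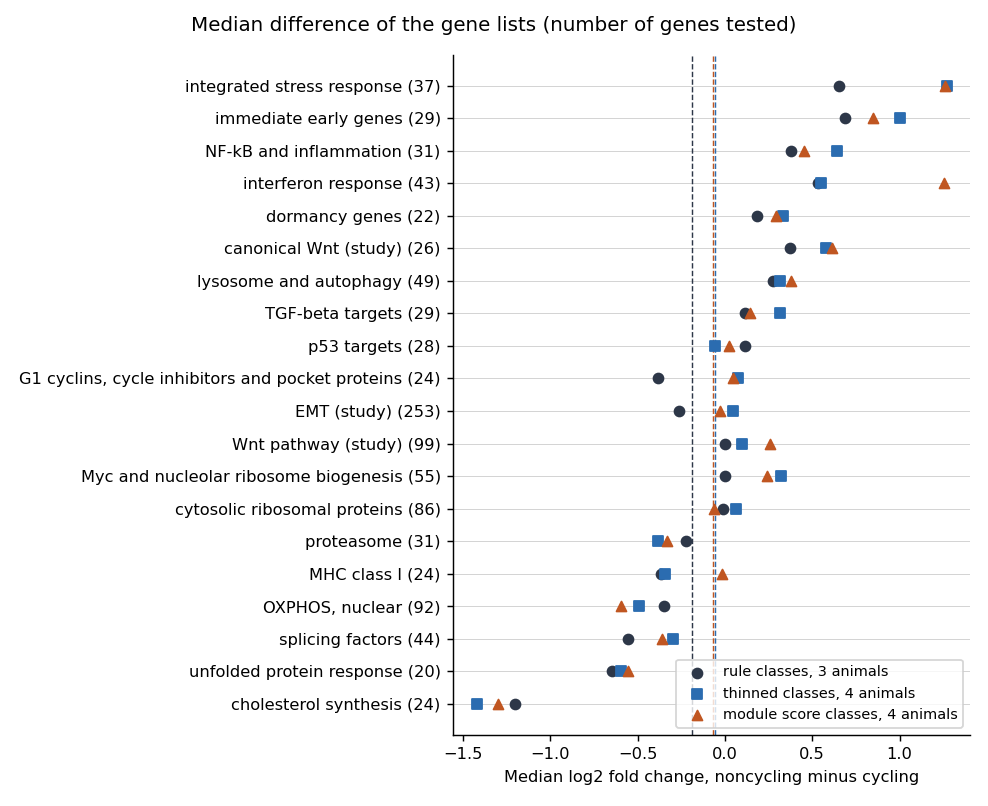
Median log2 fold change (noncycling minus cycling) of 20 gene lists in the rule, thinned and score classes, with the number of genes tested in the rule classes in parentheses; dashed lines are the medians of all genes. Of these lists, integrated stress response genes stand highest in the thinned and score classes (1.27 and 1.26 log2) and second to immediate early genes in the rule classes (0.65 against 0.69 log2), and cholesterol genes lowest, at -1.20, -1.42 and -1.30 log2.

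The remaining lists gave at most 2 calls in a direction in the thinned classes, where 1.58% of all genes were called higher and 2.79% lower, and several of the shares lie near these. In lysosome and autophagy 2 of 47 rose, among them Sqstm1, an autophagy receptor, at 869, 319.6, 565 and 563 CPM in noncycling m9, m10, m11 and m12 against 151.2, 294.9, 186.3 and 165.4 CPM (1.88 ± 0.26 log2, adjusted p 0.0015 by edgeR). Of 26 p53 targets 2 rose, Plk3 and Mdm2, and 1 fell. Of antioxidant genes 1 of 27 rose (Sqstm1) and 2 fell (Tkt and Gstp1), and of hypoxia and glycolysis genes 1 of 30 rose (Ndrg1) and 1 fell (Tpi1). In Myc and nucleolar ribosome biogenesis 2 of 55 rose, in cytosolic heat shock 1 of 19, in cytosolic ribosomal proteins 1 of 83, and in the proteasome 0 of 31 were called. Of the 7 housekeeping genes of the authors' scaling 0 were called in the thinned classes and 3 fell in the score classes (42.9%, against 3.52% of all genes). In the rule classes 0 genes of these lists were called.

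Cells of another type could enter a sort gate, and their markers were summed in each class. These sums are CPM of all reads without TMM scaling, a scale other than that of the gene values above. Immune markers ranged from 3.16 to 29.05 CPM in noncycling and from 28.1 to 416 CPM in cycling sums, with 17 of 24 genes at 0 in the noncycling sums, Ptprc, Tyrobp and Laptm5 among them, and Lyz2 in 8 cycling cells reached 288.7 CPM. Cd74 fell with these markers on the cycling side, and their part in that result was not tested. Endothelial markers ranged from 72.4 to 90.6 against 86.7 to 139.7 CPM with Cdh5, Cldn5 and Kdr at 0 in noncycling sums, fibroblast and mural markers from 2.56 to 12.9 against 2.34 to 7.36 CPM, lung epithelial markers from 17.4 to 148.9 against 37.1 to 118.7 CPM, and platelet and erythroid markers from 3.68 to 77.1 against 9.75 to 20.9 CPM. The genes of the 4T1 epithelial identity list were present in both classes, at 1954 to 5498 and 4493 to 6226 CPM with 0 of 7 at 0 in every sum of a class (Krt14 had no read in noncycling m12), and 1 of the 7 rose in the thinned classes (Cdh1).

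Whether the noncycling state looks alike in the latent and the extravascular gate was tested as the difference of both contrasts in the thinned classes, with at least 5 cells a class and 4 animals a gate, a fit added after seeing the data because the planned one left no extravascular animal. edgeR called 8 of 10380 genes (0.0771%), against 1 to 21 with an animal left out and 451 by DESeq2, and the median of the differences over all genes was 0.80 log2. Lgals1 differed most clearly. In thinned latent cells it was lower in noncycling sums (-1.05 log2), and in extravascular ones it was higher (0.58 log2), a difference of -1.64 ± 0.22 log2 (adjusted p 0.0023 by edgeR). Its noncycling and cycling values were 34078 and 27447, 57647 and 27542, 27930 and 23912, and 35422 and 26103 CPM in extravascular m5, m6, m7 and m8. For Lgals3, Nupr1 and Fdft1 the contrast was 1.72, 1.97 and -2.54 log2 in latent and 0.79, 2.04 and -3.72 log2 in extravascular cells, and the difference was not called (adjusted p 0.238, 0.954 and 0.599 by edgeR). The extravascular classes held 7 to 9 noncycling cells an animal, and day, lane and antibody again go with the gate. Against the intravascular gate, of which 2 animals held 5 noncycling cells after thinning (m5 and m8, 6 each), 0 of 11453 genes passed by edgeR (0%), while DESeq2 called 76. Before adjustment 1070 genes had a p under 0.05 by edgeR. The smallest p were those of 1600002K03Rik, Ppat and Lcn2 (adjusted p 0.0836, 0.0836 and 0.108 by edgeR), and Lgals1 differed by -0.55 ± 0.30 log2 (adjusted p 0.597).

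The cultured cells, 1 pool without replicates that entered no test, showed where these values stand before injection. Lgals3 was at 1801 CPM in the 53 noncycling and 1071 CPM in the cycling cells, and Nupr1 at 1532 against 919 CPM. Trib3 was at 147.3 against 146.9 CPM, and Atf3 at 27.2 against 39.2 CPM. Ccnd2 was at 307.5 against 273.9 CPM, Lgals1 at 23409 against 24381 CPM, and Mxd3 at 0.421 against 16.1 CPM.

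Strand was not recorded by these libraries, so a gene that overlaps another on the opposite strand is uncertain. This concerns Mxd3 (Prelid1), Fdft1 (Ctsb), Ccnd1 (LTO1), Hbp1 (Cog5), Cebpb (Tmem189), Atf5 (Nup62 and Il4i1), Ddit3 (Mars), Pdia6 (Atp6v1c2), Tpi1 (Spsb2), Fn1 (Apol7d), Sqstm1 (Mrnip), Ndufaf3 (Impdh2), Timp1 (Syn1), Ppp1r15a (Tulp2) and Plk3 (Tctex1d4) by GENCODE vM21, and some other named genes overlap predicted genes or noncoding RNAs. Lgals3, Lgals1, Klf4, Arl6ip1, Nupr1, Trib3, Chac1, Vim and Calr overlap none.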

How the data were processed

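The cells of a sort gate were single libraries. The authors made estimated counts per gene from the reads against GRCm38 (Salmon 0.7.2 in the submitters' processing notes; the annotation release is not given in the sources used here), and deposited them for all cells. The authors also deposited a filtered table of log10 values, in which they had scaled each kept cell by its housekeeping genes, multiplied by about 10000 and added 1, and it was used for the choice of cells and for the rule. Rule counts from both tables were the same in 1566 of 1566 cells, and 0 cell names occurred more than once.

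Estimated counts were rounded and summed over the cells of a class in an animal, and tested with edgeR 4.0.16 (quasi-likelihood, TMM, filterByExpr, animal as a block, Benjamini-Hochberg adjustment), without the 521 cycle genes. DESeq2 1.42.0 and limma 3.58.1 (the latter on mean log10 values or on log2 of CPM plus 1) were alternatives in R 4.3.3, and module scores were computed with Seurat 5.3.0. Shares and detected genes were tested with exact permutation tests over animals in Python 3.11.15. The design pairs both classes of an animal, although their deviations from the class means did not correlate (r = -0.05, -0.04, 0.02 and -0.02).

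Named genes are the 6 in each direction with the smallest p in the rule classes and the same sign in 4 animals, at a mean of at least 5 CPM in the higher class and without predicted genes, then up to 4 genes a list by p and the genes called in the gate difference. Some genes that these rules name are not reported here. Other genes named among the called members of a list were chosen after their values were seen. The members and lists were chosen with earlier results of these data known. The promoter search was added after seeing the data. On simulated counts with known changes of 1, 2 and 3 log2 the rule classes recovered 0%, 17.9% and 37.9% of the changed genes (12210 genes), and the thinned classes 8.96%, 55.2% and 78.8% (9729 genes). Among genes simulated without a change, 3 were called in the rule classes and 0 in the thinned ones.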

Additional observations from a re-analysis of the deposited data

Results flagged for a closer look

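Among 77 named genes, the difference of 1 animal lay apart from the other 3 by Dixon's 95% limit in 6, where chance gives about 1 in 20. Noncycling m12, with 5 cells, had 0 reads of Fdft1, and its difference of -9.07 log2 depends on the prior count. In m12 the differences of Ddx58 (-0.60 log2) and Ctsd (-0.68 log2) had the opposite sign to the other 3 animals. Chac1 stood apart in m9 (4.17 log2) and Csnk1e too (1.42 log2). Atf6 stood apart in m10, where its difference was 0.10 log2 while the other 3 animals lay between 1.55 and 1.78 log2.

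The contrast of noncycling and cycling cells differed between the latent and the extravascular gate in 8 genes (interaction term, adjusted p by edgeR), in a fit chosen after seeing the data. Lgals1 differed by -1.64 log2 (0.0023). Dtymk, a kinase of the thymidine nucleotide supply, differed by -2.16 log2 (0.0162), with -1.79 log2 in latent and 0.37 log2 in extravascular cells. The respiratory genes Ndufc1, Atpif1 and Atp5j2 differed by -2.30, -1.54 and -1.96 log2 (0.0205, 0.0205 and 0.0474), Rpl41 by -1.15 log2 (0.0205) and Tmsb10, which binds actin monomers, by -1.81 log2 (0.0277). For each of these 7 genes the fitted contrast was below 0 in latent and above 0 in extravascular cells, while the median of the differences over all genes was 0.80 log2. Irf1, an interferon regulator, had 0 reads in the noncycling sums of 4 extravascular animals and 21.5 to 57.5 CPM in their cycling sums, so that its fitted difference of 9.70 log2 (0.0405) is no bound.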

How the results depend on the processing

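The share of tested genes called by the rule classes (0.0328%) was 0.631% without a low-count filter, 2.6% with DESeq2, 10% with limma on mean log10 values, 0.0874% with limits of 4 and 5, 4.37% in the thinned and 5.27% in the score classes, 0.0983% with cycle genes kept, 0.0748% with 4 animals, 0.311% with equal cell weights, 0.0562% with cells under 5% mitochondrial reads (2 animals at 10 cells a class), and 0.00792% to 0.0239% with an animal left out (lowest without m9 and highest without m11). Of the alternatives added after seeing the data, limits of 2 and 7 gave 0.00846%, the mitochondrial limit at 5 cells a class 0.0753%, thinned sums of the score classes 8.66%, DESeq2 on the thinned classes 11.3%, and the thinned classes 0.616%, 5.84%, 0.285% and 0.365% without m9, m10, m11 and m12. Without the replicate block the rule classes gave 4 calls, as in the paired fit, and another normalization 4. The gate difference (0.0771%) was 2.73% without the replicate block, 4.34% with DESeq2 and 0.00934% to 0.199% with an animal left out. The difference from the intravascular gate (0% with 2 intravascular animals) was 0.664% with DESeq2, 0% without the replicate block and 0% to 0.143% with an animal left out (highest without m8, where the lone intravascular animal is assumed to vary like the others, and 0.00888% without m11). Which of depth, class size and class limits moves these counts was not tested.

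The latent share exceeded the extravascular one by 7.64 points and the intravascular one by 11.8, and by 11.16 and 16.57 points after thinning and 17.61 and 16.96 by scores, where both passed. With at most 2 genes as the limit the differences were 5.58 and 7.26 points, and with at most 4 genes 9.58 and 14.85. With cells under 5% mitochondrial reads they were 7.48 and 10.92 points. In these 3 settings neither comparison passed (adjusted p 0.0571 to 0.0857 by exact permutation tests). With an animal left out the ranges were 5.84 to 10.01 and 10.01 to 14.17 points, and without m12 both passed (adjusted p 0.0286 by exact permutation tests). The difference in detected genes lay between -1518 and -1415 in the alternatives run, unthinned. Of the 77 named genes the sign turned for Myc without m9 (-0.0447 log2, range to 1.176 with an animal left out), Cebpb without m11 (-0.017, range to 0.93) and under the mitochondrial limit (-0.028), Fdps in classes matched on detected genes (0.095) and Csnk1e with limits of 2 and 7 (-0.44), none of which was called in the rule classes, and the cause was not tested. The gate differences as planned and the limits of 2 and 7 at 10 cells a class were not run, since at most 1 animal of a gate concerned held 10 noncycling cells. With 3 animals and noncycling sums of few reads, most changes of up to 3 log2 were not recovered in the rule classes.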
